A study of Glycyrrhiza uralensis with 6 samples.

Results

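A set of 61 unigenes, out of 116907 in the assembly, was at least 16-fold more abundant in every licorice library labelled MeJA than in any library labelled control. A unigene is the group of assembled transcript sequences that stands in for a gene where no genome is used. The members were chosen by measured values. Each had at least 1 counted fragment in all 6 libraries, a lowest count relative to the library total (counts per 1000000, CPM) among the 3 libraries labelled MeJA at least 16 times the highest among the 3 labelled control, and a mean below 1000 CPM in both groups. They are 0.208% of the 29362 unigenes counted in all 6 libraries. Since each was counted in both groups, the rule treats these as graded differences, and unigenes counted in one group only are not among them. In 6 members, however, all control libraries held only 1 to 3 fragments, which is close to none.

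The libraries came from suspension cells of Glycyrrhiza uralensis, grown from seedling callus that had been kept on solid medium with 2,4-D, NAA and 6-BA and then moved to liquid MS medium, for which the labels list NAA, 6-BA and sucrose and the study's methods also 2,4-D. By the treatment protocol in the labels, 3 libraries were from cells given 0.5 μL MeJA per mL and 3 from cells given 0.4 μL absolute ethanol per mL, and both were cultured for 9 h. The study's supplement lists what was added as a MeJA solution, so the volume is not read here as one of pure MeJA. Its methods state a final MeJA concentration, which is not repeated here. They also describe an equal volume of ethanol and a longer culture than the labels do, while its results give 9 h for the sequenced cells. The separate time label of the control libraries gives no duration and says only that they were not induced. Whether the 3 libraries of a group came from separate cultures is not given in the sources used here, so the tests below measure the spread between these libraries, which may be technical. Cell identity was not checked against marker genes, since no gene names come with the unigene identifiers.

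The name written inside each file carried the opposite group letter to the sample title in 6 of 6 libraries. Groups here follow the titles and treatment labels, and every direction is exchanged if the names inside the files are right. The counted fragments per listed sequencing read, with the reads taken from the study's supplement, varied over the libraries by 15.8% (coefficient of variation) when matched by title and by 0.616% when matched by the names inside the files. The listed reads thus matched the names inside the files far more closely than the titles. Which of these labels gives the true treatment was not settled here, so every direction below is conditional on the titles. The libraries held 17041505 to 21670945 counted fragments. Scaled by library totals only, the tested unigenes had a median log2 fold change of 0.56, and with edgeR's TMM factors one of -0.01, a shift of 0.57. CPM values here are of the total count, as in the rule, and log2 fold changes are from the TMM fit.

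Jasmonates are lipid hormones of plants that are made after wounding and attack. The active form, jasmonoyl-isoleucine, brings the receptor COI1 together with JAZ repressor proteins, which are then degraded, and transcription factors such as MYC2 are released to switch on their targets. Methyl jasmonate added to cultured cells feeds into this pathway, and in many species it raises the transcripts of defence and specialised metabolism, in legumes including those for flavonoids and triterpenoid saponins. Which of the 61 unigenes belong to these pathways was not analysed here, as no function is assigned to the identifiers.

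In each library labelled MeJA the 61 unigenes together took a small part of the counts. They held 0.624%, 0.303% and 0.276% of the fragments in MeJA libraries 1, 2 and 3, and 0.00601%, 0.00270% and 0.00563% in control libraries 1, 2 and 3. The group means were 0.401% ± 0.193 (SD, n = 3) and 0.00478% ± 0.00181 (SD, n = 3), a difference that the rule fixed. MeJA library 1 stood well above the other libraries with its label, and in MeJA libraries 2 and 3 alone the mean was 0.289%. These are bulk libraries, in which fewer cells of a type and less RNA per cell cannot be told apart. A few unigenes made up much of the total, as the top 4 by CPM held 47.0% of all fragments counted on the set in the libraries labelled MeJA and c82363_g1 alone held 21.1%.

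**Figure D1:**
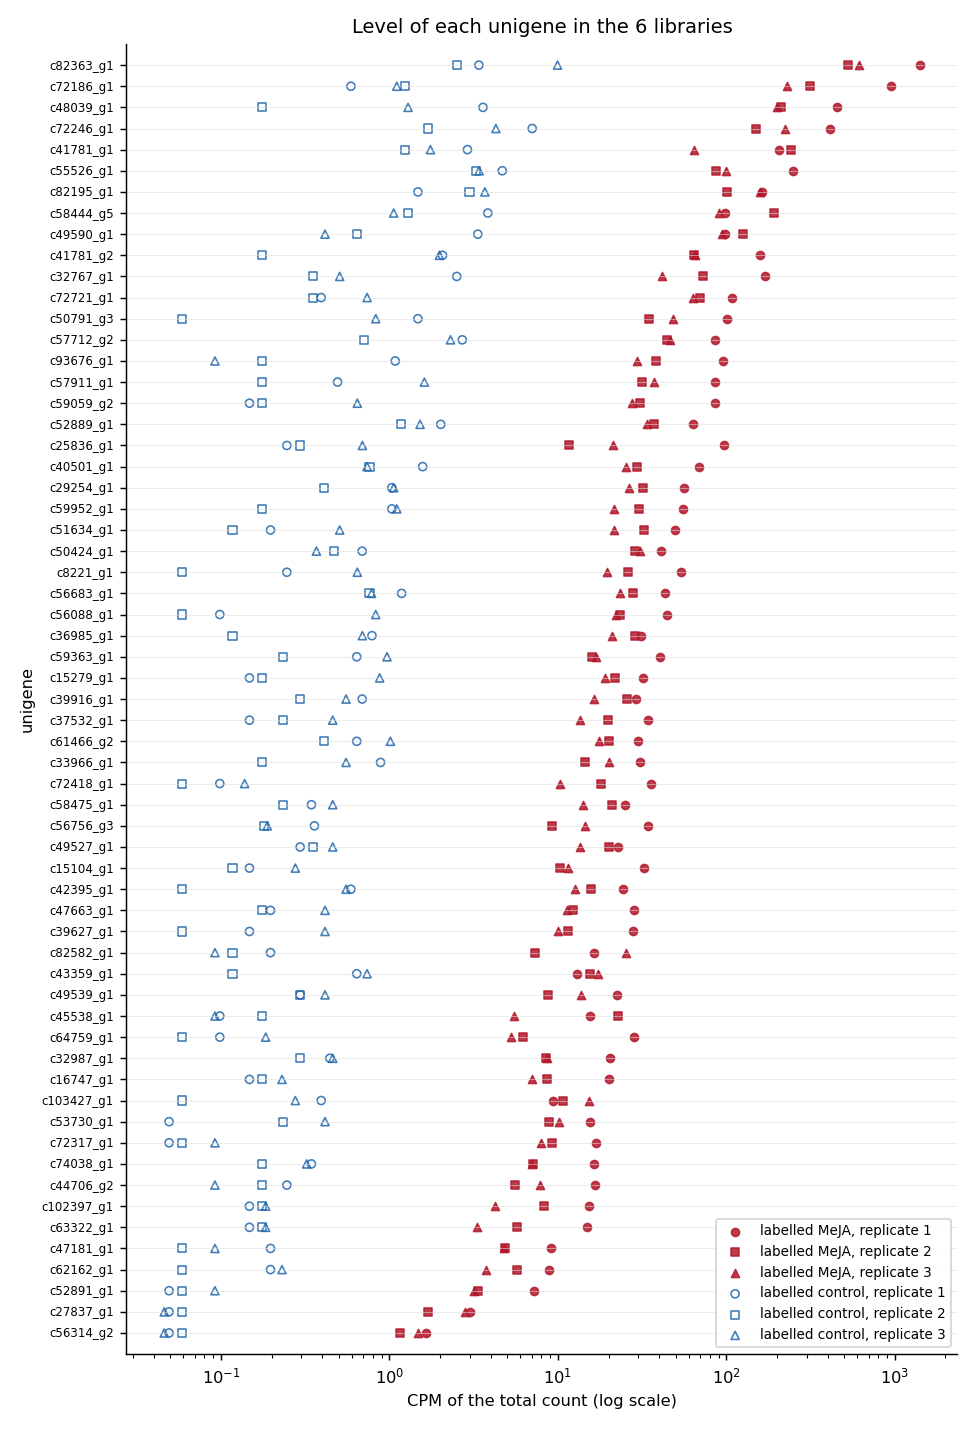
CPM of the total count (log scale) of each of the 61 unigenes, 1 per line and ordered by mean, in the 3 libraries labelled MeJA (filled red) and the 3 labelled control (open blue), with a marker shape for each replicate number. The groups are separated on every line, as the rule requires, and the filled circle of MeJA replicate 1 is the rightmost in 54 of the 61.

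Per length of transcript, the set reached from rare to abundant unigenes in the libraries labelled MeJA and was mostly rare in those labelled control. The median of the members' mean FPKM, fragments per kilobase of transcript scaled by library size, was 18.5 (quartiles 10.8 and 47.6, range 1.65 to 324) in the former. In the latter it was 0.333 (quartiles 0.150 and 0.650, range 0.0300 to 5.02). Over all 24646 tested unigenes the medians were 8.45 and 5.02. The median member therefore lay at percentile 68.9 of the tested unigenes by FPKM in the libraries labelled MeJA and at percentile 4.07 in those labelled control. The rule asked for a gap of at least 16-fold and so fixed the direction of this difference, from which nothing is read.

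The most abundant member per length was c72186_g1. It had 952, 314 and 229 CPM in MeJA libraries 1 to 3 and 0.592, 1.23 and 1.11 CPM in control libraries 1 to 3, and its mean FPKM was 324 ± 257 (SD, n = 3) against 0.633 ± 0.223 (SD, n = 3). It also had the largest separation of the set, with its lowest MeJA value 186 times its highest control value. MeJA library 1 was far above the other MeJA libraries, and control library 1 was the lowest of its group. Its log2 fold change was 8.37 (SE 0.74), with an adjusted p of 0.000520 in edgeR's quasi-likelihood test.

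The member with the most fragments was c82363_g1, a long unigene with an effective length of 3331 bases. Its values were 1406, 528 and 615 CPM in MeJA libraries 1 to 3 and 3.40, 2.52 and 9.97 CPM in control libraries 1 to 3. Per length it came after c72186_g1 and c72246_g1, with a mean of 255 ± 145 FPKM (SD, n = 3) in the libraries labelled MeJA. The highest control library was number 3 here, and the ratio of lowest MeJA to highest control value was 53.0. The log2 fold change was 6.73 (SE 0.73), with an adjusted p of 0.00104 in edgeR's quasi-likelihood test.

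The next unigenes by CPM were c48039_g1 and c72246_g1. Unigene c48039_g1 had 455, 211 and 199 CPM in MeJA libraries 1 to 3, and 3.60, 0.176 and 1.29 CPM in control libraries 1 to 3. Its control libraries differed by far more than its MeJA libraries, since control library 2 held only 3 fragments. Unigene c72246_g1 had 414, 150 and 223 CPM in MeJA libraries 1 to 3, and 7.05, 1.70 and 4.29 CPM in control libraries 1 to 3. Being shorter (866 bases), it ranked second per length with 303 ± 158 FPKM (SD, n = 3), and at 5.02 ± 3.09 FPKM (SD, n = 3) it was also the member with the highest level in the libraries labelled control. The log2 fold changes were 6.90 (SE 0.85) for c48039_g1 and 5.39 (SE 0.59) for c72246_g1.

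Unigene c55526_g1 had 249, 87.4 and 100.2 CPM in MeJA libraries 1 to 3 and 4.68, 3.29 and 3.41 CPM in control libraries 1 to 3, with a ratio of lowest to highest of 18.7 and a log2 fold change of 4.69 (SE 0.48). Unigene c82195_g1 had 162, 101 and 158 CPM in MeJA libraries 1 to 3 and 1.48, 2.99 and 3.69 CPM in control libraries 1 to 3, a ratio of 27.4 and a log2 fold change of 5.09 (SE 0.49). In c82195_g1 MeJA library 2 was the lowest of its group and the others were nearly equal.

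**Figure D2:**
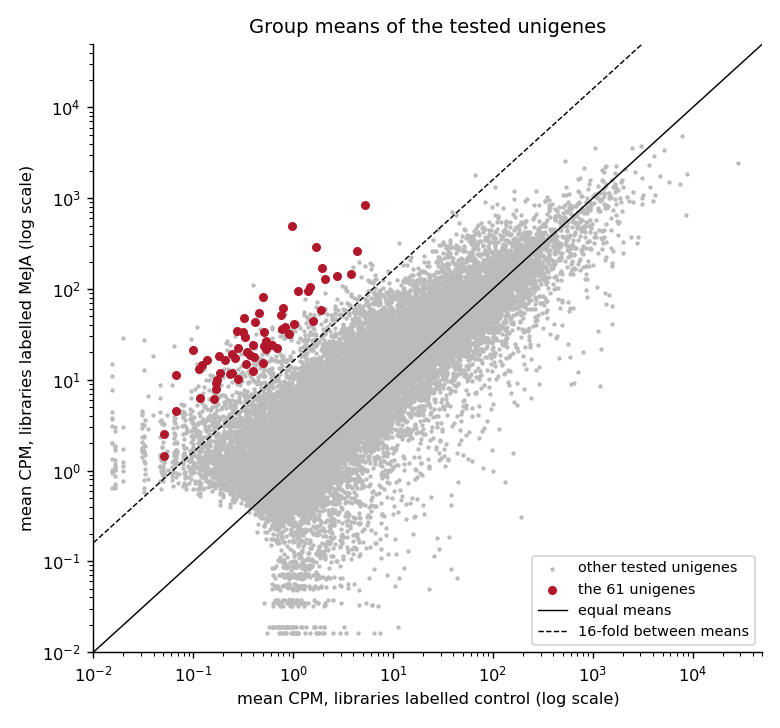
Mean CPM in the libraries labelled MeJA against mean CPM in the libraries labelled control (both log scales) for the tested unigenes with counts in both groups (grey) and the 61 selected unigenes (red). The solid line marks equal means and the dashed line a 16-fold difference, and the red points lie above the dashed line with ratios of means from 27.8 to 509.9.

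By the ratio of the lowest MeJA to the highest control value, 30 members lay between 16 and 24, 19 between 24 and 32, 8 between 32 and 64, and 4 above 64. The median was 24.2. Besides c72186_g1, the members above 64 were c72721_g1, c72317_g1 and c72418_g1. Unigene c72721_g1 was counted well in every MeJA library, with 109, 69.8 and 63.8 CPM in MeJA libraries 1 to 3 and 0.394, 0.352 and 0.738 CPM in control libraries 1 to 3. Its libraries agreed better than those of most members, with a pooled SD of 0.50 on the log2 scale. Its adjusted p, 0.000226 by edgeR, was the smallest of the set, at a log2 fold change of 6.74 (SE 0.47). The remaining members above 64 rest on very few control fragments. Unigene c72418_g1 had 2, 1 and 3 fragments in control libraries 1 to 3 against 630, 375 and 209 in MeJA libraries 1 to 3. Its pooled counts gave a ratio of 204 (exact 95% interval 93.5 to 557). Unigene c72317_g1 had 1, 1 and 2 fragments in control libraries 1 to 3 against 294, 192 and 161 in MeJA libraries 1 to 3, a pooled ratio of 163 (63.4 to 601). These intervals cover counting error only, and they come from the counts that the rule used.

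Low control counts were common in the set. A control library with 1 to 3 fragments was found in 36 of the 61 members, and all control libraries were that low in 6. The pooled control count of a member ranged from 3 to 328 with a median of 25, while no member had fewer than 24 fragments in any MeJA library. The least abundant member by CPM was c56314_g2, with 29, 24 and 30 fragments in MeJA libraries 1 to 3 and 1 fragment in each control library. Its pooled ratio was 27.9 (9.22 to 138). Next above it was c27837_g1, with 53, 35 and 57 fragments in MeJA libraries 1 to 3 and again 1 fragment in each control library, a ratio of 48.7 (16.4 to 239). At counts of 1 the control level is known only to within its counting error. The pooled SD of log2 CPM within groups was the smallest of the set in these members, 0.22 in c56314_g2 and 0.34 in c27837_g1. It takes in both groups. With 1 fragment in each control library, the control part of it comes only from the library totals. It is therefore not read as close agreement between the control libraries.

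Only 11 members had at least 10 fragments in all 6 libraries, so that both sides of the ratio were well counted. The largest ratios among these were those of c72186_g1, c82363_g1 and c82195_g1, followed by c58444_g5, c41781_g1 and c72246_g1. Unigene c58444_g5 had 98.8, 192 and 91.1 CPM in MeJA libraries 1 to 3 and 3.85, 1.29 and 1.06 CPM in control libraries 1 to 3, a ratio of lowest to highest of 23.7. In this unigene MeJA library 2, not 1, was the highest.

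The threshold cut through a continuous range of values. Just inside it were c40501_g1, at a ratio of 16.1, and c62162_g1, at 16.2. Just outside were c57811_g1, at 15.98, and c83049_g1, at 15.8. Unigene c40501_g1 had 69.2, 29.5 and 25.4 CPM in MeJA libraries 1 to 3 and 1.58, 0.763 and 0.738 CPM in control libraries 1 to 3. Unigene c57811_g1 had 82.0, 37.4 and 36.2 CPM in MeJA libraries 1 to 3 and 2.27, 0.763 and 1.85 CPM in control libraries 1 to 3. Unigene c62162_g1 had 8.83, 5.72 and 3.74 CPM in MeJA libraries 1 to 3, and c83049_g1 had 55.6, 17.5 and 27.9 CPM. The levels were thus alike in c40501_g1 and c57811_g1, while those of c62162_g1 and c83049_g1 differed widely.

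The number of members depended on the scaling and on single libraries. With TMM-scaled CPM, which lowers the MeJA values relative to the control values, 39 of the 61 still met the rule and no other unigene did. In the other direction, the mirror rule gave 21 unigenes 16-fold higher in the libraries labelled control, and with TMM scaling 39, so the excess of the first set over the second was absent under that scaling. Leaving out a library relaxes the rule, and the number then became 62 without MeJA library 1, 105 without MeJA library 2, 102 without MeJA library 3, 146 without control library 1, 97 without control library 2 and 131 without control library 3. When the ratio of 16 was asked only within each pair of libraries with the same replicate number, 137 unigenes met it.

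All 61 members passed the filter on low counts, each of them with at least 24 fragments in every MeJA library. All were called higher in the libraries labelled MeJA at an adjusted p of 0.05 by edgeR's quasi-likelihood test, beside 14.3% of all tested unigenes, and all had every MeJA value above every control value, beside 36.5%. The rule used the same contrast and fixed both counts, so nothing is read from them. All 61 were also called in each alternative fit. There the share of all tested unigenes called higher was 5.51% at an adjusted p of 0.01, 17% with DESeq2, 24.8% with total counts only, 13.7% after RLE scaling, 13.3% after upper-quartile scaling, 12.5% with a count minimum of 5 and 4.95% with no filter. It was 24.7% and 25.3% with limma on log2(FPKM + 0.1) and log2(FPKM + 1), 18% with the replicate block and 30.2% with that block and total counts only. With a library left out it was 6.85%, 13.5% and 10.6% without MeJA libraries 1, 2 and 3 and 13.6%, 6.96% and 9.5% without control libraries 1, 2 and 3. The members' log2 fold changes ran from 4.12 to 8.37 with a median of 5.37, where the median of all tested unigenes was -0.01. Their standard errors ran from 0.40 to 0.90, and their adjusted p from 0.000226 to 0.00325. Unigene c50424_g1 was among the 3 with the smallest adjusted p (0.000408 by edgeR), with 41.1, 28.6 and 30.7 CPM in MeJA libraries 1 to 3 and 0.690, 0.469 and 0.369 CPM in control libraries 1 to 3. Its log2 fold change of 5.47 (SE 0.43) was close to the median of the set, and its libraries were closely grouped on both sides.

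Selection on part of the libraries allowed the ratio to be read in libraries that the selection had not used. The rule was applied to the libraries of 2 replicate numbers, and the ratio of the MeJA to the control library was then taken in the remaining number, with a control count of 0 set to 3 counts. With replicate 1 left out, 153 unigenes were selected and their median ratio in replicate 1 was 32.4, with 105 (68.6%) at 16 or more. With replicate 2 left out, 160 were selected and the median in replicate 2 was 38.2, with 118 (73.8%) at 16 or more. With replicate 3 left out, 192 were selected and the median in replicate 3 was 15.2, with 93 (48.4%) at 16 or more. The left-out control count was 0, and so set to 3, in 10, 38 and 5 of the selected unigenes for replicates 1, 2 and 3. The MeJA library was higher in all of the selected unigenes for replicates 2 and 3 and in 152 of 153 for replicate 1. The difference therefore recurred in direction in each left-out pair, and in replicate 3 it was smaller. Unigenes counted in both libraries of a pair had a median log2 ratio of 0.27, 0.60 and 0.36 in replicates 1, 2 and 3. The shares of all unigenes at 16 or more, or higher in the MeJA library of a pair, are not given here.

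**Figure D3:**
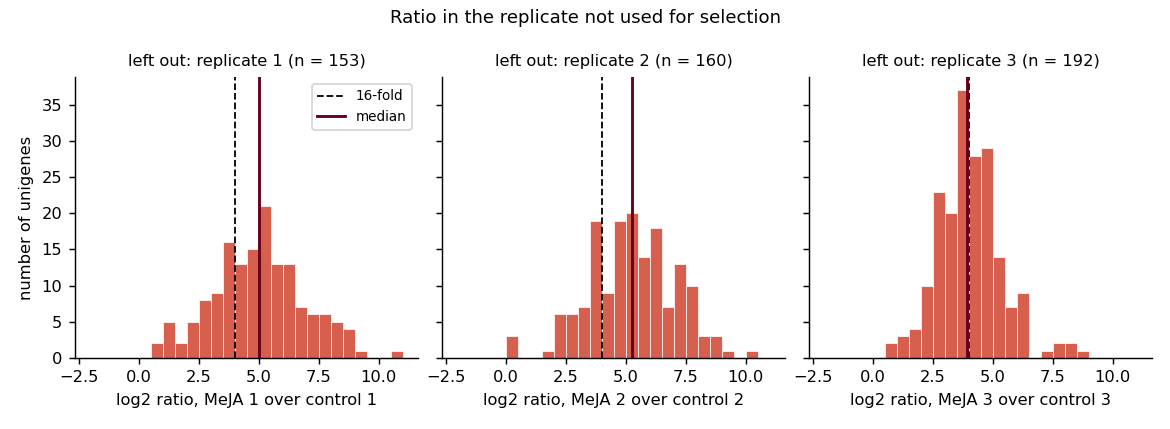
Number of unigenes by log2 ratio of the MeJA to the control library in the replicate number that was not used to select them, 1 panel per number left out, with the 16-fold line dashed and the median solid. The medians lie at 5.02, 5.26 and 3.93 in replicates 1, 2 and 3, and a unigene at 0 in the MeJA library of replicate 1 is not drawn.

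In the 61 members, chosen on all 6 libraries, the median ratio within a replicate number was 76.3 for number 1, 87.5 for number 2 and 32 for number 3. The rule sets a floor under these ratios but not their order. They come from the same libraries as the left-out ratios, so the lower value in replicate 3 is not a separate finding. Control library 3 was the highest of the control libraries in 32 members, control library 1 in 25 and control library 2 in 4. Among all tested unigenes, control library 3 was the highest in 27.7%, control library 1 in 48.2% and control library 2 in 24.1%.

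Within the libraries labelled MeJA, the set followed library 1. MeJA library 1 had the highest CPM in 54 of the 61 members, MeJA library 2 in 4 and MeJA library 3 in 3, while among all tested unigenes library 1 was the highest in 43.4%, library 2 in 38.6% and library 3 in 18.0%. The ratio in the rule used only the lowest MeJA value of each unigene, and the upper limit on the mean removed none, since 61 unigenes also met the rule without it. In the median member the level in MeJA library 1 was 2.00 times the mean of MeJA libraries 2 and 3 (quartiles 1.57 and 2.49), where the median over tested unigenes was 1.08. With TMM-scaled CPM, library 1 was the highest in 52 members. The 3453 other unigenes called higher in the libraries labelled MeJA lay in between, with a median of 1.62 and library 1 highest in 78.8%. Library 1 was the lowest MeJA library in only 2 members, so the ratio that defined membership was the same without it in 59 of the 61. That count follows from the use of the lowest value. The median log2 fold change of the members, 5.37 with all libraries, was 4.97 without MeJA library 1.

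**Figure D4:**
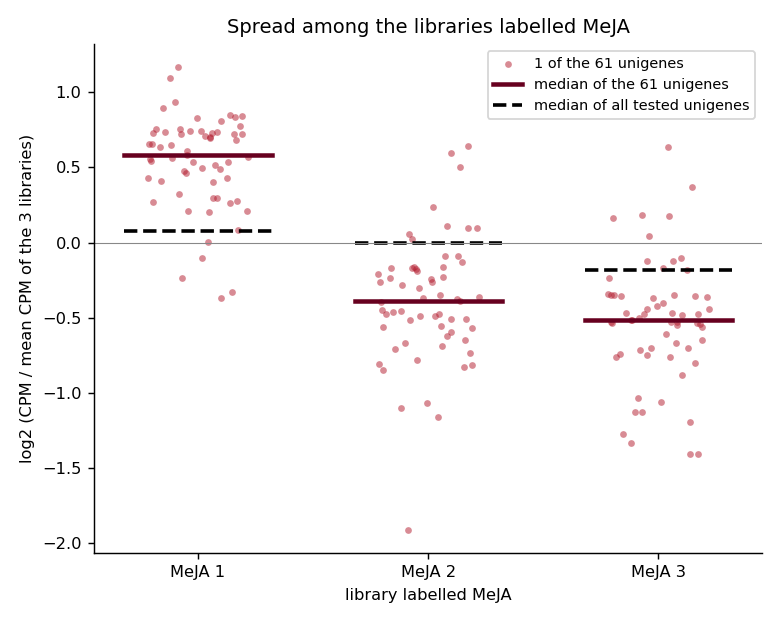
Level of each of the 61 unigenes in the 3 libraries labelled MeJA, as log2 of its CPM over its mean CPM in those libraries (points, spread sideways for legibility), with the median of the 61 (solid bars) and of the tested unigenes counted in all 3 (dashed bars). The medians of the set are 0.58, -0.39 and -0.51 in libraries 1, 2 and 3, and those of the tested unigenes are 0.07, -0.00 and -0.18.

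The 7 members that did not follow this order were singled out after their values were seen. Library 2 was the highest in c41781_g1, c58444_g5, c49590_g1 and c45538_g1, and library 3 in c82582_g1, c43359_g1 and c103427_g1. Unigene c45538_g1 had 15.5, 22.8 and 5.52 CPM in MeJA libraries 1 to 3, with library 2 the highest and library 3 the lowest. Unigene c82582_g1 had 16.5, 7.36 and 25.5 CPM in MeJA libraries 1 to 3 and 4, 2 and 2 fragments in control libraries 1 to 3. It was by far the shortest member, with an effective length of 83 bases, and per length it was nevertheless among the highest of the set, at 187 ± 87.6 FPKM (SD, n = 3). An FPKM on so short a length depends strongly on how the effective length was estimated.

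The set varied more within groups than the tested unigenes did. The pooled SD of log2 CPM within groups had a median of 0.82 over the members (quartiles 0.61 and 1.11) and of 0.61 over the 24189 tested unigenes for which it was defined. In the libraries labelled MeJA alone the median SD was 0.68 against 0.52 over tested unigenes, and in those labelled control 0.78 against 0.57. The low control counts move with the second difference, and their part in it was not tested. The largest spreads were those of c50791_g3 (1.84), c48039_g1 (1.63) and c41781_g2 (1.53). In each of these, control library 2 stood far below the other control libraries, with 1 fragment in c50791_g3 and 3 in each of the others. Among the smallest spreads was that of c49527_g1 (0.36), which had 22.7, 20.1 and 13.5 CPM in MeJA libraries 1 to 3 and 0.296, 0.352 and 0.461 CPM in control libraries 1 to 3.

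The members were long unigenes for the most part. Their effective length, worked out from each unigene's count and FPKM, had a median of 1357 bases (quartiles 866 and 2113), and that of the tested unigenes had a median of 1068 (quartiles 574 and 1757). Of the members 43 (70.5%) were at least 1000 bases long, beside 53.0% of the tested unigenes, and 4 were under 500. A longer unigene gives more fragments at a given level, and the part of length in membership was not tested. The longest member was c47181_g1 with 3789 bases. It was also the member with the lowest level per length, at a mean of 1.65 ± 0.644 FPKM (SD, n = 3) with the MeJA label, and had 159, 100 and 98 fragments in MeJA libraries 1 to 3 and 4, 1 and 2 in control libraries 1 to 3.

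The identifier of a unigene gives its component, the part of the assembly built from connected sequence, whose unigenes can be copies, paralogs or pieces of one gene. Of the members 15 (24.6%) shared a component with another unigene, beside 35.3% of those tested. Fragments could be split between such unigenes by the authors' estimation, although only 1 member had a count that was not whole in any library, beside 2.32% of the tested unigenes with one. The 61 members lay in 60 components, as c41781_g1 and c41781_g2 were in the same one. These did not run in parallel across the libraries labelled MeJA. Unigene c41781_g1 had 204, 241 and 64.3 CPM in MeJA libraries 1 to 3, with library 3 far below the others. Unigene c41781_g2 had 158, 64.7 and 65.0 CPM in the same libraries, with library 1 far above the others. In control libraries 1 to 3 they had 2.91, 1.23 and 1.75 CPM and 2.07, 0.176 and 1.98 CPM. Their log2 fold changes were 5.85 (SE 0.56) and 5.52 (SE 0.73), which differed by less than 1 standard error.

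The other 13 components held 25 unigenes besides their member, of which 18 passed the filter on low counts. Of these 10 (55.6%) were called higher in the libraries labelled MeJA by edgeR's quasi-likelihood test, beside 14.3% of all tested unigenes. None was called lower, beside 12.8%, and none was lower at an unadjusted p of 0.05 or with DESeq2. The log2 fold changes of the 10 ran from 2.25 to 6.57. In 6 of the 11 components with a tested neighbour all tested neighbours were called higher, in 3 only some were, and in 2 none was. Neighbours in a component can share fragments with a member, so they are not independent of it.

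The neighbours named here were chosen after their values were seen. Among those called higher, c44706_g1, beside the member c44706_g2, had 96, 40 and 40 fragments in MeJA libraries 1 to 3 and 0, 0 and 1 in control libraries 1 to 3. Its pooled counts gave a ratio of 177 (31.4 to 7050), an interval so wide because of the single control fragment. In component c56756 the neighbour c56756_g5 had 136, 75 and 45 fragments in MeJA libraries 1 to 3 and 0, 0 and 2 in control libraries 1 to 3, a pooled ratio of 129 (35.4 to 1072). Both were kept out of the set only because control libraries held no fragment. In component c57712 the calls were less firm. Unigene c57712_g1 (log2 fold change 2.79, adjusted p of 0.0467 by edgeR) was no longer called without MeJA library 1 (adjusted p of 0.1247), MeJA library 2 (0.0824), MeJA library 3 (0.0578) or control library 3 (0.124), and with upper-quartile scaling (0.0548). Unigene c57712_g5 (3.45, adjusted p of 0.0201 by edgeR) was no longer called without MeJA library 1 (0.0578), control library 2 (0.0610) or control library 3 (0.0757).

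In components c32987, c33966, c45538 and c56683 the tested neighbour was called higher. In components c56314, c50791, c50424, c58444 and c56756 at least 1 tested neighbour was not called. Unigene c56314_g2 had 1 fragment in each control library, as given above, and its neighbour c56314_g1 had 233, 283 and 222 CPM in MeJA libraries 1 to 3 and 231, 198 and 235 CPM in control libraries 1 to 3. The neighbour's groups overlapped, at a log2 fold change of -0.42 (SE 0.31). The member made 0.410% to 0.704% of the component's fragments in the libraries labelled MeJA and 0.0196% to 0.0296% in those labelled control. In component c50791 the neighbour c50791_g1 had 457, 244 and 354 CPM in MeJA libraries 1 to 3 and 272, 194 and 233 CPM in control libraries 1 to 3 (log2 fold change 0.04, SE 0.35), while the member c50791_g3 had 101, 34.6 and 48.1 CPM in MeJA libraries 1 to 3 and 1.48, 0.0587 and 0.831 CPM in control libraries 1 to 3. In component c50424 the member made 89.6%, 63.0% and 68.8% of the fragments in MeJA libraries 1 to 3 and 7.45%, 4.76% and 3.40% in control libraries 1 to 3. Its neighbour c50424_g2 had 4.78, 16.8 and 13.9 CPM in MeJA libraries 1 to 3 and 8.58, 9.39 and 10.47 CPM in control libraries 1 to 3, so that the unigene holding more of this component's fragments was a different one in each group. None of these 3 neighbours was called in any alternative, and the sign of their log2 fold changes turned with the scaling, to 0.15 for c56314_g1 and 0.32 for c50424_g2 with total counts only and to -0.05 for c50791_g1 with upper-quartile factors. In component c58444 the neighbour c58444_g3 (adjusted p of 0.0719 by edgeR) was called in 8 of the alternative fits. Its neighbour c58444_g2 was not called in the main fit, at a log2 fold change of 0.09 (SE 0.30). In component c56756 the neighbours c56756_g1, c56756_g2 and c56756_g4 were not called in the main fit. Their log2 fold changes were -0.57 (SE 0.34), -0.38 (SE 0.34) and -0.22 (SE 0.38).

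**Figure D5:**
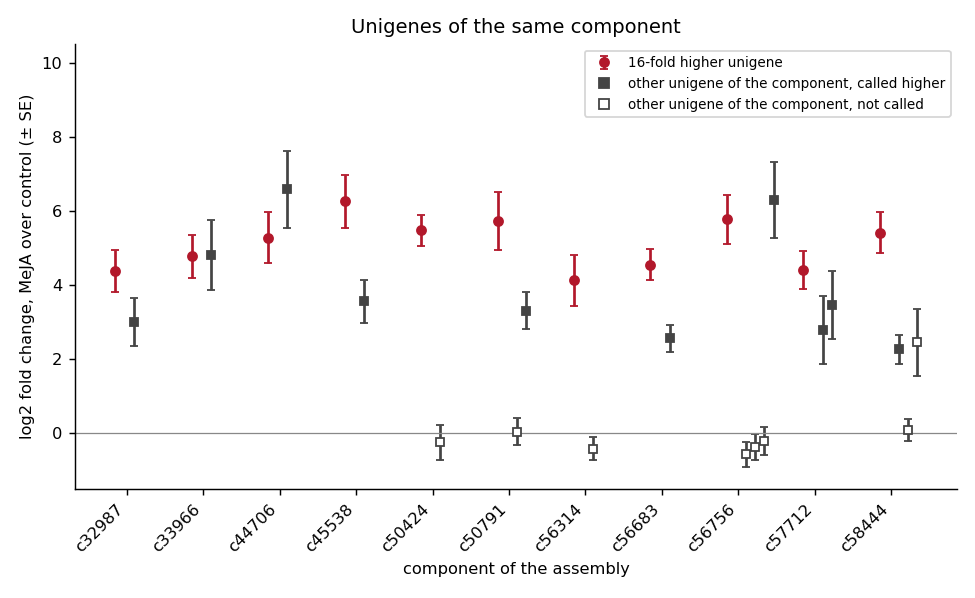
Log2 fold change of the libraries labelled MeJA over those labelled control (± SE, edgeR) for the members (red circles) and the other tested unigenes (squares, filled where called higher) of the 11 components that hold both. The members lie between 4.12 and 6.26, the filled squares from 2.25 to 6.57, and the open squares lie near 0 except that of c58444_g3 at 2.44.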

How the data were processed

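RNA-Seq libraries of suspended licorice cells, 3 labelled MeJA and 3 labelled control, were sequenced by the authors on an Illumina platform (CASAVA and RSEM per the labels, versions not given in the sources used here) and assembled de novo. The authors deposited for each library the expected count of fragments per unigene from RSEM, without normalization, and the FPKM, scaled by effective length and library total. The deposited files also hold no gene names, and no genome or annotation was used. Groups were taken from the sample titles and treatment labels.

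The members were found by the rule given above on the counts as deposited. The members, the rule and the lists were chosen with earlier results of these data known. Counts were then rounded and tested over all unigenes with edgeR 4.0.16 in R 4.3.3 (TMM; filterByExpr at 10 counts per library and 15 in all; glmQLFit, then glmQLFTest without covariates; prior count 0.125). P-values were adjusted by Benjamini-Hochberg over the 24646 unigenes tested at a threshold of 0.05. The tests are two-sided. Standard errors are the absolute log2 fold change over the square root of F. DESeq2 1.42.0, limma 3.58.1 with trend on log2(FPKM + 1) and log2(FPKM + 0.1), other scalings and filters, unrounded counts, the replicate block and each library left out were alternatives. Effective length was worked out from libraries with 10 counts or more and an FPKM of 0.3 or more. Intervals of pooled ratios are exact binomial (Clopper-Pearson) at 95%. Tables used Python 3.11.15, numpy 2.4.6, pandas 2.3.3, scipy 1.17.1 and matplotlib 3.10.9.

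Replicate numbers recur in both groups. Same-numbered libraries deviated together from their group means, with correlations across unigenes of 0.253, 0.277 and 0.299 for numbers 1, 2 and 3, against -0.388 to 0.126 for unlike numbers. Deviations from a group mean cancel within the group, so positive values for like numbers pull those for unlike numbers down. The contrast between them is therefore partly built in. On this check of the data alone the numbers were treated as pairs in the ratios within a number, the left-out replicates and the replicate block. No label says what the numbers stand for. The main edgeR fit was unpaired, and its standard errors and adjusted p do not use the pairs. No replicates were duplicates (chi-square per degree of freedom at least 71.8).

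Unigenes were named by rules on the highest CPM, the largest ratio (over all members and over those with at least 10 counts in every library), closeness to the threshold, a shared component, spread, length, lowest level and smallest adjusted p.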

Additional observations from a re-analysis of the deposited data

How the results depend on the processing

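An adjusted p threshold of 0.01, a control count of 0 set to 1, RLE factors for the component neighbours and the share in MeJA libraries 2 and 3 alone were added after the data were seen. The number of members, 61, was 39 with TMM factors, 240 at 8-fold, 12 at 32-fold, 410 by the ratio of group means, 11 with at least 10 counts in every library, 133 with no minimum count and 137 by the ratio within each replicate number (the replicate block). It was 62 to 146 with a library left out. These settings tighten or relax the rule itself, except TMM. All 61 members were called under each alternative. Their median log2 fold change, 5.37, was 3.74 with limma on log2(FPKM + 1), where the added 1 exceeds most control values, and 4.97 to 5.56 with a library left out. The members' mean share of counts in the libraries labelled MeJA, 0.401%, was 0.962% at 8-fold, 0.190% at 32-fold and 0.291% to 0.767% with a library left out and the list redrawn. The median log2 ratio in the left-out replicate, 5.02, was 3.90 at 8-fold, 5.83 at 32-fold and 4.36 with at least 10 counts in the libraries used for selection, and 3.93 to 5.26 over the numbers. The median effective length, 1357, was 1389.7 with stricter minimums (count of 50, FPKM of 1), 1347 at 8-fold and 1479 at 32-fold. The 10 neighbours called higher were 8 to 11 with a library left out and 11 with the replicate block, which added c58444_g3 (adjusted p of 0.0231 by edgeR) and changed no other call of a named unigene. None of the 357 alternative fits of the 21 named members lost its call or turned. Control counts of 1 to 3, found in 36 members, limit the precision of their ratios.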

Other observations

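All 4 members with a ratio above 64 (c72186_g1, c72721_g1, c72317_g1 and c72418_g1) carried component numbers from 72186 to 72721, and c72246_g1 carried one in the same range. This was noticed after the values were seen. The component numbers from 72000 to 72999 took in 984 of the 116907 unigenes and 221 of the 29362 counted in all 6 libraries, and held 5 of the 61 members and 0 of the 21 unigenes that were 16-fold higher in the libraries labelled control. With so small a share of all unigenes in the range, the 0 of 21 is not read as a contrast. Leaving out the members, which the rule made sure to be called, 37 of the 197 tested unigenes in this range (18.8%) were called higher in the libraries labelled MeJA by edgeR's quasi-likelihood test, beside 14.05% of the 24585 tested unigenes that were not members. The range was drawn around the members, and the difference was not tested. What the order of the numbers stands for is not given in the sources used here.

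Among the 21 unigenes that were 16-fold higher in the libraries labelled control, MeJA library 1 was the highest of its group in 5, MeJA library 2 in 10 and MeJA library 3 in 6. Control library 2 was the highest of its group in 11 of these 21 and in 4 of the 61 members. The difference between the sets was not tested.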
